A study of Mus musculus with 7 samples.

Results

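The 10 genes described here mark neural progenitors or take part in the switch from making neurons to making glia. They are Nes, Vim, Prom1, Msi1, Sox9, Nfia, Nfib, Nfix, Fgfr3 and Ptprz1. They were picked by name and found in the files by their Ensembl identifiers, and all 10 were listed, of 13226 genes that had a transcript start or a transcript end in at least 1 library. RNA was sequenced from neural cells grown from the wild-type mouse embryonic stem (ES) cell line B6G-2. Embryoid bodies were kept for 6 days, progenitors were then expanded with bFGF and EGF, and at day 14 the cells were put in BrainPhys medium with B27 to differentiate and were exposed for 1 day. There were 7 libraries, 1 of control cells and 1 for each of the insecticides carbaryl, chlorpyrifos, DDT, deltamethrin, imidacloprid and rotenone, and the stated aim was to learn how insecticides harm the developing nervous system. Neither a dose nor a vehicle is given in the labels used here. All groups share the same stem cell line, and the labels name the tissue as brain although these are cultured cells. With 1 library per group there is no replicate check on any difference, no test was possible, and the 6 comparisons share the same control library.

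Radial glia and neural stem cells carry an intermediate filament network of nestin and vimentin, and they keep proteins such as prominin-1 and Musashi-1 while they divide. As development goes on, SOX9 and then the nuclear factor I proteins NFIA, NFIB and NFIX open the program for astrocytes and other glia, and the receptors FGFR3 and PTPRZ1 are kept by progenitors and by glial cells. The insecticides belong to separate classes: chlorpyrifos and carbaryl block acetylcholinesterase, DDT and deltamethrin hold sodium channels open, rotenone blocks complex I of mitochondria, and imidacloprid acts on nicotinic receptors.

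The deposited values are FPKM, fragments normalised for transcript length and sequencing depth, for single features of transcripts: a start (first exon), an end (last exon), an exon that is kept or skipped, or an exon with alternative ends. A gene's start total is the sum over its starts, and its end total the sum over its ends. Each library listed 93977 to 95776 distinct features. The files used give no read counts, so the depth of each library is unknown. Of the fixed markers, 7 of 8 neuronal genes were listed, with sums of 216.2 to 246.4 FPKM. Within that list Syt1 was at 3.07 FPKM in control and 11.5 to 14.7 FPKM in the 6 exposed libraries, and Stmn2 was lowest in control (20.02 FPKM, with 23.1 to 51.5 elsewhere). Every comparison below rests on this control library, including those where a member was highest in control, and the part of this difference in them was not tested. All 6 astrocyte genes were listed, with sums of 70.6 to 84.2 FPKM, but Gfap, S100b and Aqp4 stayed at or below 0.678 FPKM and were at 0 in 3, 4 and 4 libraries. Among ES cell genes, 4 of 6 were listed, with sums of 1.29 to 2.94 FPKM, and Nanog was at 0 in 6 libraries. The 6 mesenchymal genes summed to 12.2 to 20.8 FPKM, highest with rotenone, 1 of 4 endothelial genes was listed (1.12 to 1.77 FPKM), and 0 of 5 microglial genes had a start or an end. Genes with a single exon, such as Sox2, carry no usable feature in these files and are not analysed here. Some other genes, such as Tubb3, Fabp7 and Fgfr2, also had no start or end. Whether a gene without a start or an end was expressed cannot be told from these files.

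All 10 genes stayed within 2-fold of control in each exposed library. Vim, the vimentin gene, was the most abundant, with a median start total of 1146 FPKM over the 7 libraries, followed by Nes at 196 FPKM and Ptprz1 at 97.4 FPKM, and these 3 ranges did not overlap. Nfib (median 37.0 FPKM), Msi1 (29.5 FPKM) and Sox9 (22.7 FPKM) came next, and the range of Msi1 overlapped both neighbours. Nfix (13.8 FPKM), Nfia (10.4 FPKM) and Prom1 (9.16 FPKM) followed, each overlapping the next, and Fgfr3 was lowest, at 2.55 FPKM. Starts and ends gave like totals for 6 of the 10 genes. Ends were under-listed for Nes (24.1% of the start total) and Msi1 (68.3%), and nearly or fully missing for Fgfr3 and Nfix, so start totals are used below unless ends are named. From the lowest to the highest library, the median range of the start total was 0.35 on the log2(FPKM + 1) scale for the 10 genes, 0.46 for 10112 genes, and 0.34 for the 3035 genes that averaged 20 FPKM or more.

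**Figure D1:**
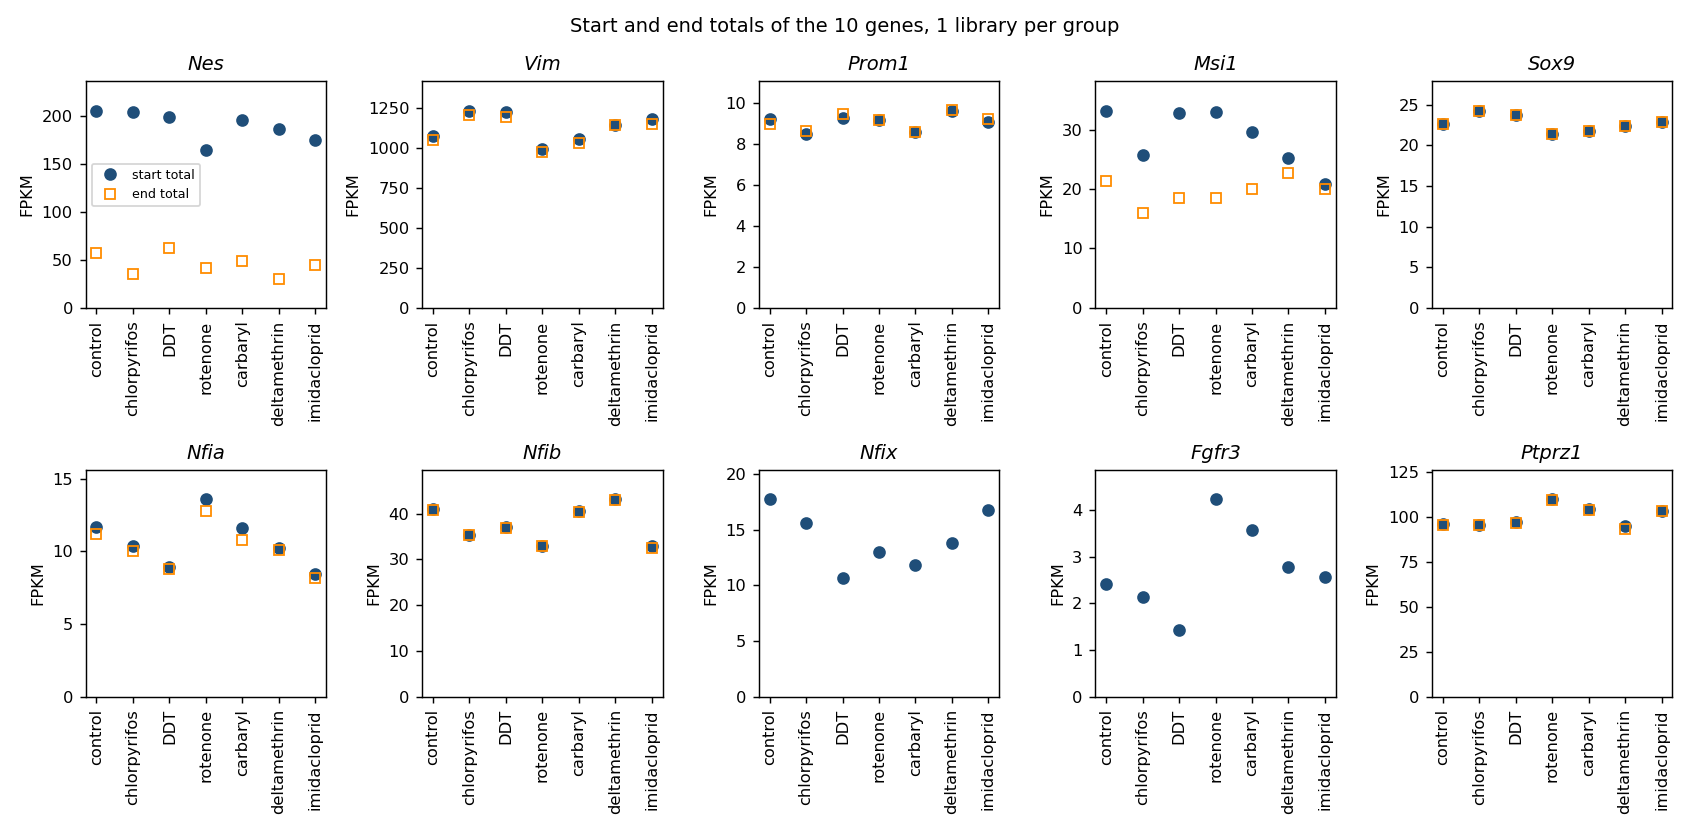
Start totals (filled circles) and end totals (open squares) in FPKM of each gene in the 7 libraries, each panel with its own axis from 0. Circles and squares coincide for 6 genes, while for Nes the ends lie at 29.7 to 62.2 FPKM, far below the starts at 165.4 to 206.0 FPKM, and the circles of Nfix, Nes and Msi1 are all highest in control.

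Nes encodes nestin, the filament protein used most often to mark neural stem cells (GRCm38 chr3:87971078-87980451, plus strand). Its start total was 206.0 FPKM in control, 204.7 with chlorpyrifos, 199.2 with DDT, 165.4 with rotenone, 196.0 with carbaryl, 186.4 with deltamethrin and 175.6 with imidacloprid. Control was highest and rotenone lowest, 0.315 lower than control on the log2 scale. A single start served all 7 libraries. The listed ends, at 29.7 to 62.2 FPKM, are all last exons that begin inside the long annotated last exon. The sign of the DDT difference was opposite from starts (-0.05) and ends (0.11). The ends also gave larger differences with deltamethrin (-0.93, against -0.14 from the starts) and chlorpyrifos (-0.68, against -0.01). In bulk RNA, fewer cells of a type and less RNA per cell cannot be told apart, here and below.

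Vim encodes vimentin, the filament partner of nestin, which reactive and immature astrocytes also carry (chr2:13573927-13582826, plus strand). Control stood at 1075 FPKM, chlorpyrifos at 1233, DDT at 1225, rotenone at 995, carbaryl at 1057, deltamethrin at 1146 and imidacloprid at 1180.4. Rotenone was again lowest, by 0.11 on the log2 scale, and chlorpyrifos highest, by 0.20. The same order of the lowest and highest library held for the end totals. An exon of 86 bases was left out of few Vim transcripts: 99.3% to 99.7% of FPKM kept it in all 7 libraries. Mesenchymal cells also carry vimentin. Their marker sum was 20.8 FPKM with rotenone, where Vim was lowest, against 14.3 in control, and its part in the values of Vim was not tested.

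Prom1 encodes prominin-1 (CD133), a membrane protein on the protrusions of neural stem cells (chr5:43993620-44102032, minus strand). Its start total hardly moved, at 9.19 FPKM in control, 8.49 with chlorpyrifos, 9.26 with DDT, 9.16 with rotenone, 8.55 with carbaryl, 9.61 with deltamethrin and 9.07 with imidacloprid. Its makeup moved far more. The exon of 27 bases below is shown because its use had the widest range among exons of the 10 genes with at least 5 FPKM over both forms in each library. It is in capitals between the last 15 bases of the exon before it and the first 15 of the exon after it in an annotated transcript of 28 exons, in which it is exon 4 (GENCODE M21, chr5:44058626-44058652, minus strand).
Prom1 exon of 27 bases: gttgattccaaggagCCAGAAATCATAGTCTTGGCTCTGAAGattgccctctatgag
The exon is coding and a multiple of 3 bases, so either form keeps the reading frame. It was in 66.9% of Prom1 FPKM in control, 51.1% with DDT, 60.4% with rotenone, 69.2% with deltamethrin and 65.0% with imidacloprid. With chlorpyrifos it was in 12%, and with carbaryl in 87.1%. Chlorpyrifos thus stood apart at the low end: forms with the exon were at 1.02 FPKM and forms without it at 7.47 FPKM, against 6.15 and 3.04 FPKM in control. Across all genes, 5324 skipped exons had at least 5 FPKM over both forms in each library, and their shares ranged over a median of 9.94 percentage points. A range of at least 70 points, as for this exon (75 points), was seen in 2.57% of them. The exon was picked for its wide range, so this percentage does not measure how unusual it is.

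The starts and ends of Prom1 also differed. In control 99.0% of the start total came from 1 first exon, chr5:44101648-44101954. This share was 98.5% with chlorpyrifos, 92.9% with DDT, 87.7% with rotenone and 93.6% with deltamethrin. It was lower with carbaryl (75.9%) and with imidacloprid (73.2%). Those are the only libraries that listed a first exon at chr5:44101221-44101419, at 1.03 and 1.26 FPKM. An early end at chr5:44029680-44029769 held 22.3% of the end total with imidacloprid (2.05 FPKM) and 0.308% to 1.53% in the other 6 libraries.

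Msi1 encodes Musashi-1, an RNA-binding protein that holds back translation of the Notch inhibitor Numb in progenitors (chr5:115429599-115455698, plus strand). Its start total was 33.2 FPKM in control, 25.7 with chlorpyrifos, 32.9 with DDT, 32.9 with rotenone, 29.5 with carbaryl, 25.2 with deltamethrin and 20.8 with imidacloprid. Control was highest, DDT and rotenone stood next to it, and imidacloprid was lowest, 0.65 below control on the log2 scale. The end total gave a smaller spread and another order: 21.4 FPKM in control, 15.9 with chlorpyrifos, 18.4 with DDT, 18.5 with rotenone, 19.96 with carbaryl, 22.7 with deltamethrin and 19.97 with imidacloprid. Only the chlorpyrifos library lay at least 0.32 below control from both ends (-0.36 and -0.41), imidacloprid was 0.09 below control from the ends, and deltamethrin changed sign (-0.38 from the starts, 0.08 from the ends).

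The Msi1 libraries also split by an exon of 57 bases, shown because the form without it was at almost 0 in some libraries and not in others. It is in capitals, with 15 bases of the exon on each side (chr5:115447130-115447186, plus strand, exon 10 of 14).
Msi1 exon of 57 bases: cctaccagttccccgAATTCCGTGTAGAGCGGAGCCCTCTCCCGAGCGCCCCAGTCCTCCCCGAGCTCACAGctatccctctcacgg
Forms without this coding exon were at 6.26 FPKM in control, 7.31 with DDT, 5.19 with rotenone and 9.51 with carbaryl. They were at 0.0838 FPKM with chlorpyrifos, 0.0158 with deltamethrin and 0.136 with imidacloprid. The 3 libraries that nearly lack the short form are the 3 with the lowest Msi1 start totals. The start total contains the short form, so the 2 are not independent, and deltamethrin had the highest end total (22.7 FPKM). Forms with the exon were at 19.98 to 27.7 FPKM in all 7 libraries, and they made up 67.8% (carbaryl) to 99.9% (deltamethrin) of the total, with control at 81.2%. This form without the exon had the widest range, 3.37 on the log2 scale, of the splicing features of the 10 genes that were listed in all libraries with a mean of at least 1 FPKM.

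Sox9 encodes the transcription factor that gives progenitors the competence to make glia and acts before the nuclear factor I proteins (chr11:112782224-112787760, plus strand). It had 1 start and 1 end with the same value in each library. Its level was 22.7 FPKM in control, 24.3 with chlorpyrifos, 23.8 with DDT, 21.4 with rotenone, 21.7 with carbaryl, 22.3 with deltamethrin and 22.9 with imidacloprid. The whole range was 0.18 on the log2 scale, and no splicing feature was listed for this gene. Sox8, a close relative of Sox9 that also acts in glia, was at 20.1 to 30.7 FPKM, lowest with rotenone as well.

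Nfia encodes NFIA, which is induced after SOX9 and starts astrocyte formation (chr4:97772734-98118874 in GENCODE M21, plus strand). Its start total was 11.7 FPKM in control, 10.4 with chlorpyrifos, 8.89 with DDT, 13.6 with rotenone, 11.6 with carbaryl, 10.2 with deltamethrin and 8.44 with imidacloprid. Rotenone was the only library above control (0.20), and DDT (-0.36) and imidacloprid (-0.43) were lowest. End totals had the same highest and lowest library, with 12.8 FPKM for rotenone and 8.16 for imidacloprid against 11.2 in control.

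The libraries drew their Nfia transcripts from different starts. A far upstream first exon, chr4:97581738-97582072, lies outside the GENCODE gene but overlaps the RefSeq promoter window of Nfia. It gave 7.83 FPKM with rotenone, 2.44 in control, 1.27 with carbaryl and 0.865 with chlorpyrifos, and it was not listed with DDT, deltamethrin or imidacloprid. The main downstream start, chr4:97777608-97777994, gave 5.76 FPKM in control, 4.92 with rotenone and 8.16 to 10.1 FPKM in the other 5 libraries. The upstream start therefore held 57.7% of the start total with rotenone and 20.9% in control, whereas the downstream start held 96.7% to 98.7% with DDT, deltamethrin and imidacloprid. Another start, at chr4:97772734-97772911, was highest in control at 3.10 FPKM and was at 0.124 to 1.69 FPKM elsewhere. Where genes were assigned by the annotated exon boundaries, the upstream start dropped out of Nfia, and the rotenone value went from 0.19 above control (mean of both ends) to 0.13 below it. The RefSeq promoter window around the upstream start, 250 bases before to 50 after the RefSeq start on GRCm38.p6, is printed because this start held most of the rotenone total. Capitals mark the 255 bases inside the listed first exon (chr4:97581693-97581992, plus strand).
Nfia upstream promoter: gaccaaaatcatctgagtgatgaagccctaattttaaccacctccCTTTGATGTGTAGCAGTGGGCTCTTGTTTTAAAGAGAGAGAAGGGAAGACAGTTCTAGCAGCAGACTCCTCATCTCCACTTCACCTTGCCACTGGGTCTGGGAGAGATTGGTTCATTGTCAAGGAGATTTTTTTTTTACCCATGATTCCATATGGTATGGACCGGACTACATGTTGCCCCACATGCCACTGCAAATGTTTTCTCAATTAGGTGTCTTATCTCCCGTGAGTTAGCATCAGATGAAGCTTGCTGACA

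Use of 2 coding exons of Nfia also differed, and both are printed with 15 bases of the neighbouring exons in lower case. The exon of 129 bases (chr4:98041551-98041679, exon 6 of 10) keeps the reading frame, and the exon of 92 bases (chr4:98081725-98081816, exon 9 of 10) does not, so leaving it out changes the end of the protein.
Nfia exon of 129 bases: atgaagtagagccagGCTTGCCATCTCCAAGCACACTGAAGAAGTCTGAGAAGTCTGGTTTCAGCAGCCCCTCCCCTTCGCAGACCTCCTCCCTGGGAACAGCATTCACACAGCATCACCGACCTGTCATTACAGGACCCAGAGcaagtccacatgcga
Nfia exon of 92 bases: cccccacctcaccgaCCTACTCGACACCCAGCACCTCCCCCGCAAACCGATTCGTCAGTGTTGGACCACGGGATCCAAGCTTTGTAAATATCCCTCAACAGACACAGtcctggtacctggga
The longer exon was in 71.0% of FPKM in control, the lowest of the 7, in 87.7% with carbaryl and 88.5% with DDT, and in at least 97.2% with chlorpyrifos, rotenone, deltamethrin and imidacloprid. The shorter exon was in 92.4% in control, 99.99% with chlorpyrifos, 88.5% with DDT, 81.2% with rotenone, 72.7% with carbaryl, 96.5% with deltamethrin and 99.98% with imidacloprid. The libraries with chlorpyrifos, deltamethrin and imidacloprid thus had each of these exons in at least 96.5% of FPKM. Control had a low share of the longer exon, and carbaryl of the shorter.

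Nfib encodes NFIB, which acts with NFIA in gliogenesis and in the maturation of radial glia (chr4:82290173-82705750, minus strand). Its start total was 40.9 FPKM in control, 35.4 with chlorpyrifos, 37.0 with DDT, 33.0 with rotenone, 40.5 with carbaryl, 43.2 with deltamethrin and 32.8 with imidacloprid. Deltamethrin alone stood above control (0.08), and imidacloprid (-0.31) and rotenone (-0.30) were lowest. The splice forms differed as well. Transcripts that joined the last exon straight to the exon bounded at chr4:82327729, with all exons between them skipped, were at 29.7 to 32.7 FPKM in all 7 libraries. They were thus steadier than the start total, of which they made up 79.7% of the start total in control, 75.7% with deltamethrin and 99.2% with imidacloprid. Of the forms that kept exons of this block, the one that skipped an exon of 89 bases was at 5.70 FPKM in control and 6.24 with deltamethrin, but at 0.0005 with chlorpyrifos and 0.0002 with imidacloprid.

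Nfix encodes NFIX, the family member linked to the quiescence of neural stem cells (chr8:84699876-84800344, minus strand). Its start total was 17.7 FPKM in control, 15.6 with chlorpyrifos, 10.6 with DDT, 12.99 with rotenone, 11.8 with carbaryl, 13.8 with deltamethrin and 16.8 with imidacloprid. It was below control in 6 of 6 exposed libraries, by 0.69 with DDT, 0.55 with carbaryl, 0.42 with rotenone and 0.34 with deltamethrin. Both of its starts were at their highest in control, and the upstream one varied more. The downstream start, chr8:84773354-84773396, gave 9.19 FPKM in control and 7.92 to 9.17 FPKM in the exposed libraries. The upstream start, chr8:84799998-84800344, gave 8.53 FPKM in control, 7.56 with chlorpyrifos, 2.70 with DDT, 4.89 with rotenone, 3.67 with carbaryl, 5.74 with deltamethrin and 7.63 with imidacloprid. Its share of the start total was 48.1% in control and 25.4% with DDT. The forms that carry both an exon of 92 bases and an exon of 148 bases near the end of the gene had nearly the same FPKM as the downstream start in all 7 libraries, with 7.92 FPKM for both with DDT and 9.19 in control. The promoter of the downstream start is shown because this start varied less, from 7.92 to 9.19 FPKM over the 7 libraries. It is the RefSeq window on GRCm38.p6, with the 36 bases inside the listed first exon in capitals (chr8:84773361-84773660, minus strand).
Nfix downstream promoter: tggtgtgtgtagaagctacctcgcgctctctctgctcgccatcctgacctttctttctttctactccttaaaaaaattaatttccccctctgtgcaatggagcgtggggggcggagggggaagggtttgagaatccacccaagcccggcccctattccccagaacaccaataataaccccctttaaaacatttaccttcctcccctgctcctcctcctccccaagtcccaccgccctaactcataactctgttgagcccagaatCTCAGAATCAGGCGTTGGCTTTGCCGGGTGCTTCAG

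**Figure D2:**
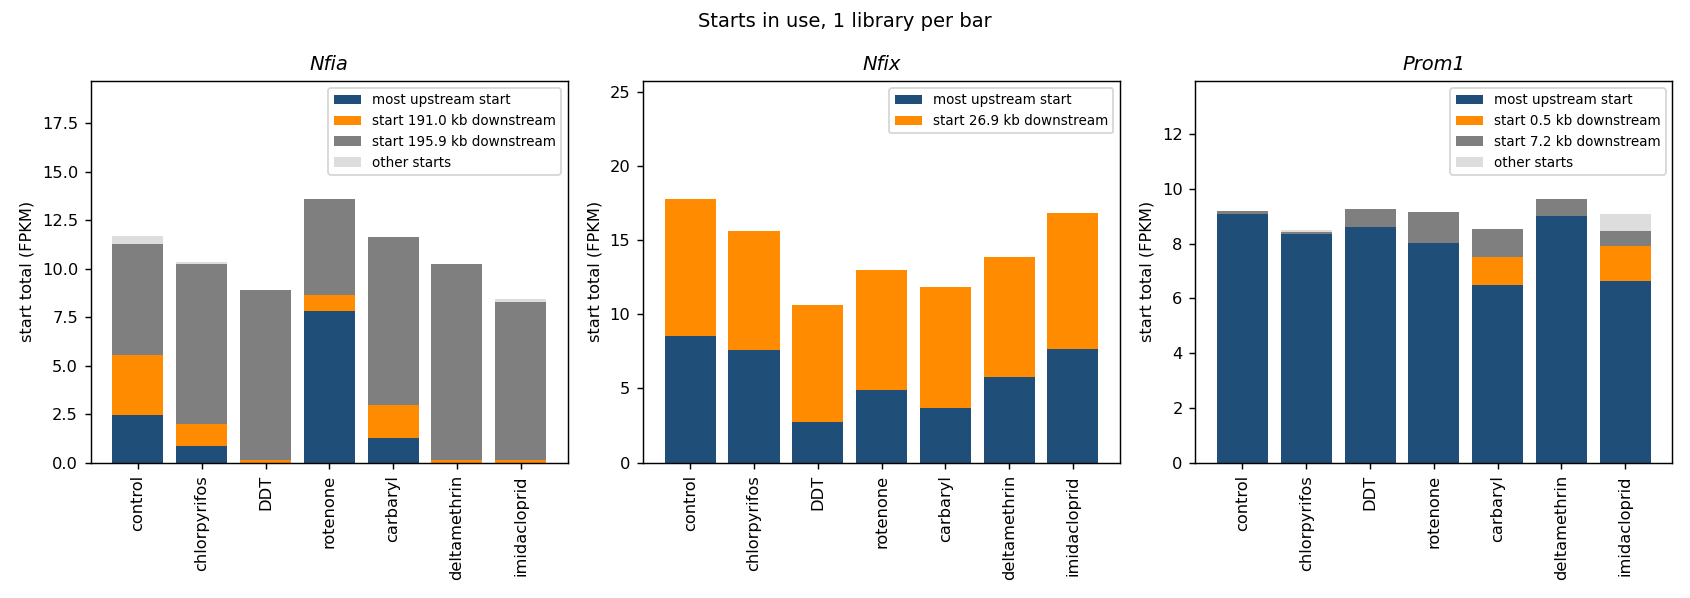
FPKM of each start of Nfia, Nfix and Prom1 in the 7 libraries, stacked so that the bar height is the start total; starts under 10% of the total in all libraries are summed in light grey. The most upstream Nfia start is tall only with rotenone (7.83 FPKM), the most upstream Nfix start is shortest with DDT (2.70 FPKM) while the downstream one stays at 7.92 to 9.19 FPKM, and the Prom1 start just downstream of the main one appears only with carbaryl and imidacloprid.

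RefSeq promoter windows were matched for 7 of the 10 genes, 12 windows in all. The full nuclear factor I palindrome, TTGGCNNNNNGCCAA, was in 0 of the 12, and in 0.0365% of all 32851 windows on either strand. Its arm TTGGC, which the palindrome contains, was in 5 of the 12, in windows of Nfix, Prom1 and Vim, and in 46.7% of all windows. The printed Nfix window holds the arm and the printed Nfia window does not. The TATA motif TATAAA was in 1 of the 12, that of Vim, and in 13.6% of all windows.

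Fgfr3 encodes a fibroblast growth factor receptor found on ventricular zone progenitors and astrocyte precursors (chr5:33721674-33737068, plus strand). It was the lowest of the 10 genes, at 2.42 FPKM in control, 2.13 with chlorpyrifos, 1.43 with DDT, 4.23 with rotenone, 3.56 with carbaryl, 2.79 with deltamethrin and 2.55 with imidacloprid. Rotenone (0.61) and carbaryl (0.42) were above control and DDT (-0.49) below it on the log2(FPKM + 1) scale, which understates the change of a gene this low. The astrocyte gene Aldh1l1 had its 2 highest values in the same libraries, 43.6 FPKM with rotenone and 40.4 with carbaryl against 28.9 in control. Gja1 did not follow, at 36.2 and 38.7 against 38.3 FPKM, and the part of astrocyte RNA in the Fgfr3 values was not tested. An exon of 54 bases of Fgfr3 is shown because it encodes the acid box, a run of acidic residues between the first and the second immunoglobulin domain. It is in capitals (chr5:33728192-33728245, exon 4 of 18).
Fgfr3 exon of 54 bases: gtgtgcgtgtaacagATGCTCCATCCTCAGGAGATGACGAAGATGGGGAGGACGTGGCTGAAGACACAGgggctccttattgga
It was in 81.6% of FPKM in control, 65.2% with chlorpyrifos, 38.3% with DDT, 89.6% with rotenone, 94.8% with carbaryl, 78.5% with deltamethrin and 49.9% with imidacloprid. Rotenone and carbaryl, with the highest Fgfr3 totals, had the highest shares, and DDT, with the lowest total, the lowest. The totals contain the forms with the exon, so totals and shares are not independent. Both forms together averaged 2.54 FPKM, under the 5 FPKM used for exon counts below.

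Ptprz1 encodes a receptor tyrosine phosphatase of radial glia and oligodendrocyte precursors that binds pleiotrophin and contactin-1 (chr6:22875502-23052916, plus strand). Its start total was 96.0 FPKM in control, 95.9 with chlorpyrifos, 97.4 with DDT, 110.0 with rotenone, 104.5 with carbaryl, 95.4 with deltamethrin and 103.6 with imidacloprid. Rotenone was highest (0.20), then carbaryl (0.12) and imidacloprid (0.11), and the other 3 stood at -0.01 to 0.02. The contactin gene Cntn1 was at 6.11 (DDT) to 7.87 FPKM (imidacloprid), with 6.17 in control. One long exon of Ptprz1 has 2 forms, of 3547 bases (chr6:22999200-23002746) and of 1000 bases. The long form encodes the stretch that carries sugar chains in the full receptor and in the secreted form called phosphacan, and the short form gives the short receptor. The splice site inside the exon is printed as 20 bases on each side, with the first 2 bases past the short form in capitals (chr6:23000180-23000219). The next lines show it and a skipped exon of 21 bases (capitals; chr6:23024714-23024734, exon 16 of 30).
Ptprz1 inner splice site: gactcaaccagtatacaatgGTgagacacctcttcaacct
Ptprz1 exon of 21 bases: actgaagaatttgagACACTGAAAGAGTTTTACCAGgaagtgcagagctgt
The long form made up 55.04% in control, 57.3% with chlorpyrifos, 50.02% with DDT, 70.7% with rotenone, 67.8% with carbaryl, 51.8% with deltamethrin and 65.6% with imidacloprid. The 3 libraries with the highest Ptprz1 total had the highest share of the long form, but the total contains the long form, so the 2 are not independent. In FPKM, the long form was at 77.6 with rotenone against 52.7 in control, and the short form at 32.2 against 43.1. The exon of 21 bases was in 61.3% in control, 59.9% with chlorpyrifos, 60.7% with DDT, 53.8% with rotenone, 44.6% with carbaryl, 56.3% with deltamethrin and 60.04% with imidacloprid. It was thus lowest in carbaryl and rotenone, which were high in the long form, but not low in imidacloprid.

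**Figure D3:**
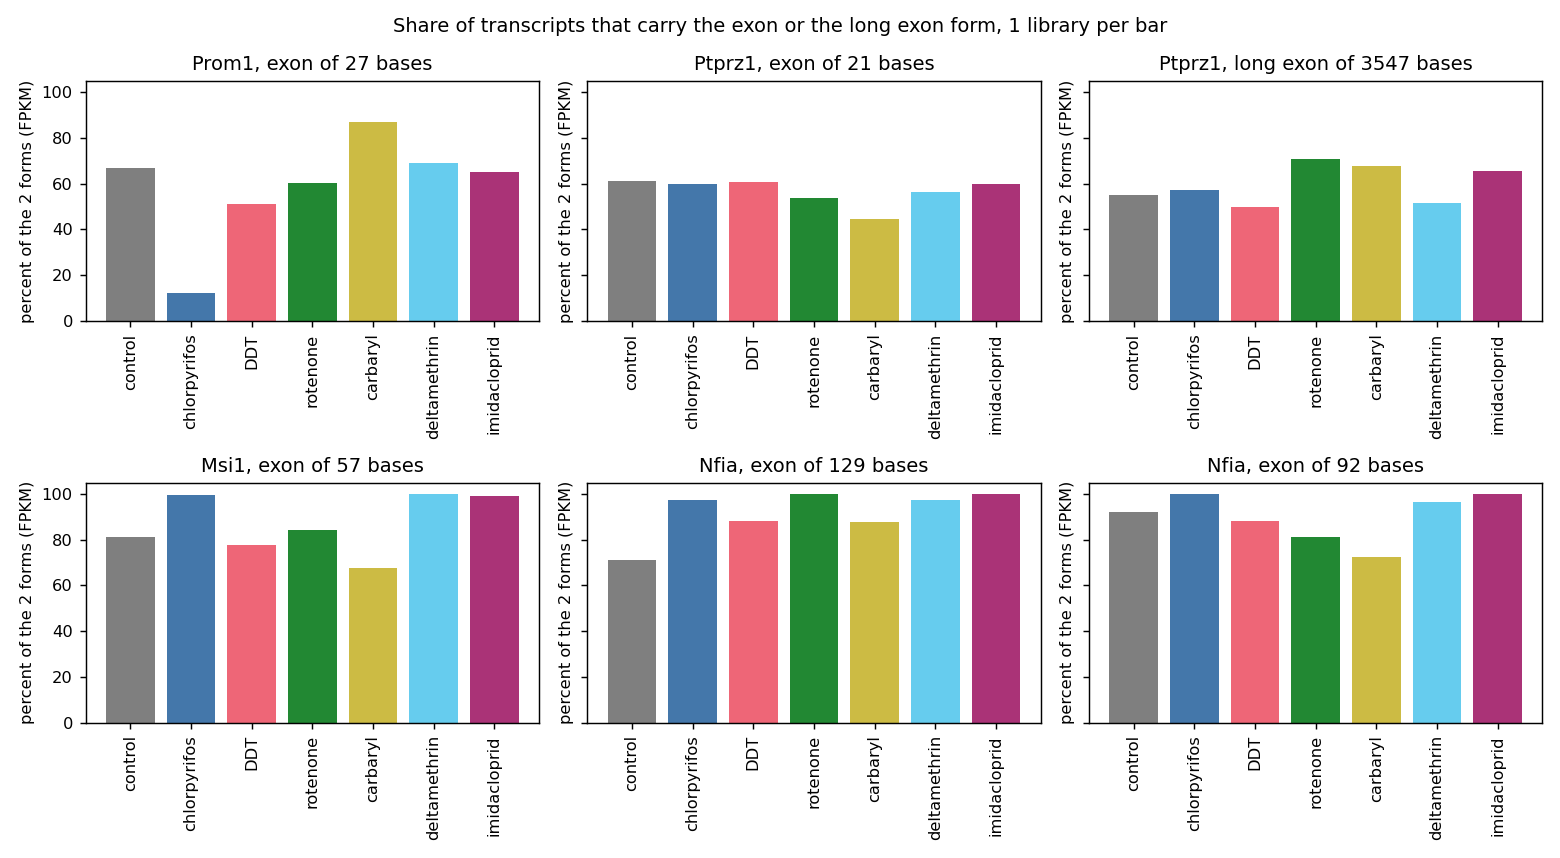
Share (percent of the FPKM of both forms) of Prom1, Ptprz1, Msi1 and Nfia transcripts that keep the named exon or its long form, with 1 bar per library. The chlorpyrifos bar of Prom1 is at 12% while the other 6 are at 51.1% to 87.1%, and the Ptprz1 long exon is highest with rotenone (70.7%).

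Each insecticide was then compared with control over the 10 genes. With chlorpyrifos, an organophosphate, Msi1 was the farthest from control (-0.36), Nfib was lower (-0.20) and Vim higher (0.20). At 2-fold or more there were 0 of 10 genes, where 3.11% of 10019 genes with a start total were past that fold. A smaller threshold, 0.32 on the log2 scale (25% higher or 20% lower), was passed by 1 gene that was lower (Msi1), as by 11.8% of all genes, and by 0 that were higher, as by 11.6%.

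With DDT, an organochlorine, 3 genes of glial fate were lower: Nfix (-0.69), Fgfr3 (-0.49) and Nfia (-0.36). Nfib was lower too (-0.14), Sox9 was not (0.06), and Vim was higher (0.19). At 2-fold there were 0 of 10 (3.18% of all genes), and at the smaller threshold 3 of 10 were lower (12.4%) and 0 higher (11.8%). The cycling genes summed to 243.9 FPKM with DDT, lowest of the 7, against 301.7 in control, although Cdk1 of that list was higher (19.9 against 18.9). Olig2, the oligodendrocyte lineage factor, was at 109.7 FPKM against 160.6. The fixed progenitor markers outside the 10 genes summed to 138.2 FPKM with DDT, highest of the 7, against 110.8 in control. Of these, Slc1a3 was higher (119.7 against 90.6 FPKM), and Pax6 and Hes5 were lower. The part of any of these markers in the values of Nfix, Fgfr3 and Nfia was not tested.

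With rotenone, the filament genes Nes (-0.315, just inside the smaller threshold) and Vim (-0.11) and the factor Sox9 (-0.08) were each at their lowest. Nfia (0.20), Ptprz1 (0.20) and Fgfr3 (0.61) were each at their highest. Nfib (-0.30) and Nfix (-0.42) were lower than control. At 2-fold there were 0 of 10 (2.98%), and at the smaller threshold Fgfr3 was higher (11.8%) and Nfix lower (11.9%). The mesenchymal marker sum was at its highest in this library, 20.8 against 14.3 FPKM, and its part in these values was not tested.

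With carbaryl, a carbamate, Fgfr3 and Nfix passed the smaller threshold: Fgfr3 was higher (0.42), against 11.0% of all genes, and Nfix lower (-0.55), against 11.9%. Ptprz1 was higher (0.12), and Nes, Vim, Sox9, Nfia and Nfib were within 0.08 of control. None of the 10 reached 2-fold (3.28%).

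With deltamethrin, a pyrethroid, Msi1 (-0.38 from the starts) and Nfix (-0.34) were lower by the smaller threshold, with 11.8% of all genes, and 0 genes were higher, with 11.4%. Nfib was at its highest (0.08) and Fgfr3 slightly higher (0.15). Of the 10, 0 reached 2-fold (3.13%).

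With imidacloprid, a neonicotinoid, Msi1 (-0.65 from the starts) and Nfia (-0.43) were lower by the smaller threshold, with 11.8% of all genes, and 0 were higher, with 11.5%. Nfib (-0.31) was just inside that threshold and Nes was lower (-0.23), whereas Nfix, lower in the other exposed libraries, was at -0.07. Of the 10, 0 reached 2-fold (2.99%).

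Over the 10 genes the median log2 difference from control was -0.11 with chlorpyrifos, the farthest from 0, and within 0.05 of 0 with the other 5 (start totals), while the median over all genes was within 0.01 of 0. Restricted to the 6 genes whose starts and ends agree, 0 of 6 were at 2-fold with any insecticide, where 1.58% (chlorpyrifos), 1.71% (DDT), 1.56% (rotenone), 2.07% (carbaryl), 1.68% (deltamethrin) and 1.64% (imidacloprid) of 6145 to 6153 genes were. Over those 6 genes the medians lay between -0.04 (chlorpyrifos) and 0.03 (DDT). With 3 insecticides the median changed sign between the 10 start totals and these 6 genes. These were DDT (-0.03 and 0.03), deltamethrin (-0.015 and 0.026) and imidacloprid (-0.045 and 0.01). At the smaller threshold the counts were 0 or 1 of 10 in a direction, with 3 lower with DDT and 2 lower with deltamethrin and imidacloprid. The shares over all genes were 11.0% to 12.4%, and counts this small cannot be told apart from them. With deltamethrin and imidacloprid, 1 of the 2 was Msi1, which was at 0.08 and -0.09 from the ends.

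**Figure D4:**
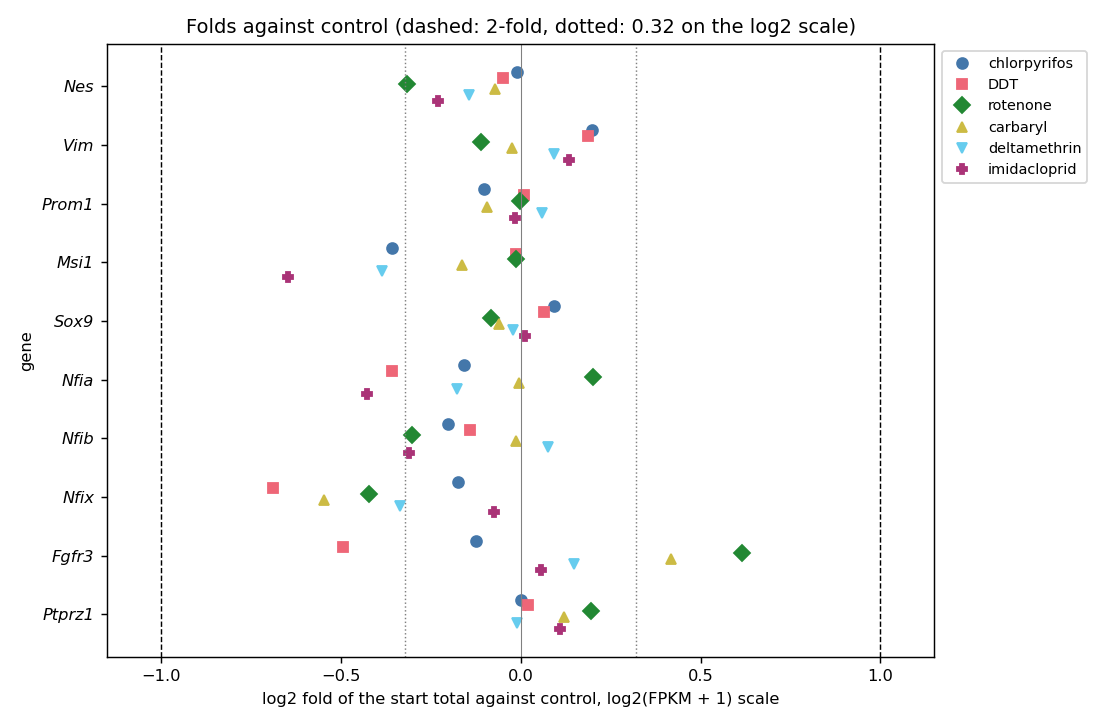
Log2 difference of each gene's start total from control on the log2(FPKM + 1) scale, with 1 symbol per insecticide; dashed lines mark 2-fold and dotted lines the smaller threshold of 0.32. All symbols lie between the dashed lines, all 6 Nfix symbols lie left of 0, and Fgfr3 spans from -0.49 (DDT) to 0.61 (rotenone).

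Shares of exons and starts were counted the same way, with 20 percentage points from control as the threshold and at least 5 FPKM over both forms in both libraries. Of the skipped exons of the 10 genes, 2 of 12 passed with chlorpyrifos (10.8% of all skipped exons), 0 of 13 with DDT (11.3%), 1 of 12 with rotenone (10.7%), 1 of 13 with carbaryl (11.1%), 1 of 13 with deltamethrin (11.2%) and 1 of 12 with imidacloprid (11.3%). They were the Prom1 exon of 27 bases, with chlorpyrifos and carbaryl, and the Nfia exon of 129 bases, with chlorpyrifos, rotenone, deltamethrin and imidacloprid. Of the exons with 2 alternative ends, 0 of 3 or 0 of 4 passed in each comparison, where 10.3% of all such exons did with chlorpyrifos, 9.95% with DDT, 9.71% with rotenone, 9.68% with carbaryl, 10.3% with deltamethrin and 9.84% with imidacloprid. In genes with several starts, 1 of 6 passed with chlorpyrifos (19.5% of all such genes), 2 of 6 with DDT (18.8%), 1 of 6 with rotenone (18.3%), 2 of 6 with carbaryl (18.7%), 1 of 6 with deltamethrin (18.2%) and 2 of 6 with imidacloprid (18.9%). Nfia was among them each time, joined by Nfix with DDT and by Prom1 with carbaryl and imidacloprid.

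**Figure D5:**
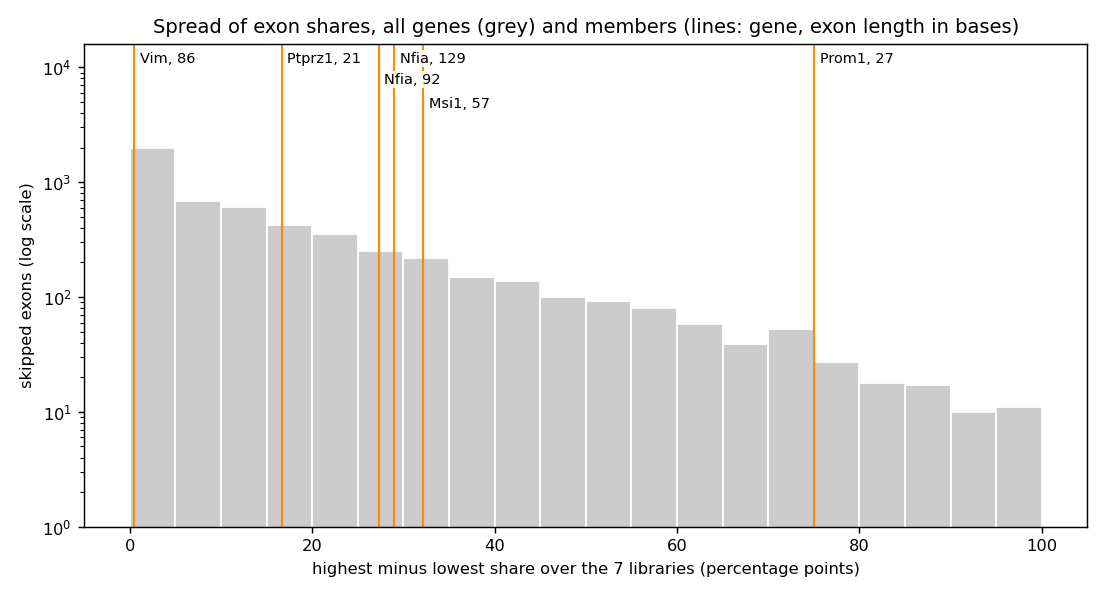
Number of skipped exons (log axis) by the range of their share over the 7 libraries in percentage points, for 5324 exons of all genes in grey, with 6 exons of the 10 genes as lines. The Prom1 exon of 27 bases is far to the right at 75 points, the Msi1 and Nfia exons lie at 27.3 to 32.2 points, and Vim is near 0.

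The surroundings of these genes were read from a list of 74 other genes of progenitors, gliogenic factors, growth factor signalling and glia. Of these 60 had a start or an end and 27 could be compared from agreeing ends, of which 0 reached 2-fold with any insecticide, where 1.56% to 2.07% of all genes did. In start totals alone the count at 2-fold was 1 of 53 with chlorpyrifos, 2 of 54 with DDT, 4 of 53 with rotenone, 3 of 54 with carbaryl, 4 of 53 with deltamethrin and 2 of 53 with imidacloprid, beside 2.98% to 3.28% of all genes. Of these, Etv5, a target of growth factor signalling chosen here after its values were seen, had a start total of 26.95 FPKM in control and 71.6 to 89.2 FPKM in the 6 exposed libraries, while its end total went the other way, from 49.6 FPKM in control to at most 0.847 FPKM. Tcf4, a basic helix-loop-helix factor chosen in the same way, had start totals of 48.5 FPKM in control and 18.4 (deltamethrin) to 43.3 FPKM (chlorpyrifos). Its end total was 14.4 FPKM with carbaryl and 0 in all other libraries, so the ends give no check on these values. Among the 27, the median difference from control lay between -0.09 (DDT, with 22 of 27 lower) and 0.07 (imidacloprid, with 17 of 27 higher). Tnc, the tenascin-C of the stem cell matrix, was at 28.2 FPKM with rotenone against 50.5 in control (-0.82). That rotenone value is the mean of a start total of 14.1 FPKM and an end total of 42.3 FPKM, and in control these were 50.3 and 50.8 FPKM. Mdk, the growth factor midkine and a ligand of the Ptprz1 receptor, was at 86.6 FPKM with imidacloprid against 151.4 (-0.80). Smad4, which carries bone morphogenetic protein signals toward glial genes, had the highest fold among these 27 genes with rotenone (24.6 against 15.4 FPKM, 0.64), chlorpyrifos (22.2 FPKM) and carbaryl (21.4 FPKM, the mean of 16.4 at the starts and 26.4 at the ends). Frs2, an adaptor of the fibroblast growth factor receptors, was at 4.77 FPKM with chlorpyrifos against 7.64 (-0.58). With DDT, the cell adhesion gene Nrcam and the receptor gene Cntfr, which receives the astrocyte-inducing factor CNTF, were each 0.47 below control. The Notch effector Hes5 was at 6.10 FPKM with carbaryl and 6.30 with deltamethrin against 8.23 in control, and Hopx, a radial glia gene, at 23.8 FPKM with imidacloprid against 17.6. Hes1, another Notch effector, was at 25.4 to 32.7 FPKM. Of genes whose ends did not agree, the larger total of the progenitor factor Pax6 was 8.77 to 11.7 FPKM, that of Slc1a3, the radial glia glutamate transporter, was 86.3 to 119.7 FPKM and that of Egfr 12.4 to 20.3 FPKM. Fgfr1, the more abundant relative of Fgfr3, had start totals of 35.0 FPKM (deltamethrin) to 120.2 FPKM (DDT), with 82.3 in control. Msi2, the relative of Msi1, had start totals of 32.4 to 43.2 FPKM. Nfic, the fourth nuclear factor I gene, was at 4.90 (carbaryl) to 11.2 FPKM (deltamethrin), with 5.76 in control. Fabp7 and Fgfr2 had no start or end, which does not show that they were not expressed.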

How the data were processed

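Total RNA was sequenced, 1 library per group, with groups taken from the sample titles. The labels do not give the number of cultures per library. The submitters' processing notes name HISAT2 2.0.1, cutadapt 1.9.1 and bcl2fastq 2.17.1.14 and the build GRCm38. The software behind the FPKM values was not given in the sources used here. The authors deposited FPKM per transcript feature, per the file headers, and these values were used with no further scaling. Between 1973 and 2078 repeated lines per library were dropped. Features were given to a gene by the identifier on the line, on the gene's own strand, for genes with an annotated transcript of 2 or more exons (GENCODE M21, GRCm38). Start and end totals agreed if their means differed by at most 0.3 (log2). Genes needed a mean of 1 FPKM. The pseudocount was 1 FPKM, and shares needed 5 FPKM in both libraries. A fold is given only where both libraries are above 0. The lowest listed value was 1e-06 FPKM, so values are not whole reads and no interval or floor is given. All 10 genes are named in each library. Of the other list, named genes are fixed ones and the 2 highest and 2 lowest folds with a mean of at least 5 FPKM. Exons to print were chosen after their values were seen. The genes and lists were chosen with earlier results of these data known. Sequences come from GENCODE M21 transcripts and from RefSeq promoters (GRCm38.p6). Gene totals and folds were tested on simulated data with known 2-fold changes, for genes with agreeing ends and with no pseudocount. Folds from start totals alone and shares of exons or starts were not simulated. Analyses used Python 3.11.15, pandas 2.3.3 and numpy 2.4.6.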

Additional observations from a re-analysis of the deposited data

Results flagged for a closer look

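A few features that carry the identifier of one of the 10 genes lie on the strand opposite that gene. They are left out of the totals above and were not listed in control. For Vim, an opposite-strand start was listed in 3 exposed libraries, at most at 1.156 FPKM (DDT), and an opposite-strand end in 5, at most at 1.187 FPKM (chlorpyrifos). For Nfix, an opposite-strand start and an opposite-strand end were listed with imidacloprid, each at 0.8774 FPKM. For Ptprz1, an opposite-strand start and an opposite-strand end were listed with chlorpyrifos, each at 0.6579 FPKM. Whether the libraries kept strand was not given in the sources used here. Without strand, reads from a gene and from its opposite strand cannot be told apart.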

How the results depend on the processing

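With the pseudocount at 0.1 FPKM, start or end totals alone, the larger total, rescaled libraries, a filter of 5 FPKM or none, repeated lines kept, the median of the other libraries as reference, or genes assigned by annotated exon boundaries, the number of members at 2-fold was 0 in each of 66 values, counted over 10 genes with start totals or the larger total, 8 with end totals and 6 otherwise. The same 66 include opposite-strand features counted in, an alternative chosen after seeing the data. Medians over the same sets of genes moved by at most 0.075 (log2) from those of the 6 genes with agreeing ends, and changed sign in 10 of 66 values. The largest shift was with chlorpyrifos, from -0.039 over 6 genes to -0.114 over 10 start totals, where the set of genes also changed. Medians of the other genes, taken over 23 to 56 of the 74, moved by at most 0.053 and changed sign in 8 of 66. The 252 values of single genes cover only the 6 genes with agreeing ends, and 8 of these values changed sign. The largest shift was that of Nfia with rotenone, from 0.19 to -0.13 under annotated exon boundaries. The upstream start then no longer counts for Nfia. Nes, Msi1, Nfix and Fgfr3 were not covered. In start totals, Nfix (-0.69 with DDT), Msi1 (-0.65 with imidacloprid) and Fgfr3 (0.61 with rotenone) had the largest differences from control. From the end totals, Msi1 with imidacloprid was at -0.09, and Nes was at -0.93 with deltamethrin and -0.68 with chlorpyrifos. Between starts and ends, Nes with DDT and Msi1 with deltamethrin changed sign. Taken as a share of the start total, also chosen after seeing the data, 42 exon shares moved by at most 14.77 points, the most for the Nfia exon of 129 bases in control, from 71.0% to 56.3%. No paired analysis was possible because each group has 1 library, and no replicate could be left out. Limits: depth is unknown, the labels give no dose, and with 1 library per group exposure and culture cannot be told apart.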
